A study of Mus musculus with 22 samples.

Results

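Mitotic germinal center B cells were taken as the cells in which at least 5 of 8 genes of chromosome segregation were detected. The 8 genes are Ccnb1, Ccnb2, Cdc20, Plk1, Aurka, Cenpf, Hmmr and Cenpa, and a gene counted as detected with 1 or more unique molecular identifiers (UMIs, each standing for 1 captured mRNA molecule). Of 6741 cells that passed filters of 500 or more genes and no more than 10% of UMIs from mitochondrial transcripts, 923 met this rule. The cells came from the spleens of C57BL/6 mice that were immunized intraperitoneally with NP(23)-KLH, a nitrophenyl hapten on a carrier protein, or with ovalbumin (OVA), in both cases with alum and lipopolysaccharide. The 2 NP libraries hold viable B220+ Fas-high GL-7-high cells that bound NP, sorted on day 13. The 1 OVA library holds total germinal center B cells of the same surface phenotype without an antigen gate, and the day of its sort is not given in the sources used here. All animals carry the labels male and 8 weeks old, no genetic change or drug is listed for any group, and the labels do not say whether the NP replicates came from different animals, so p-values measure the spread between libraries.

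Germinal centers are sites in lymphoid follicles where B cells divide quickly, mutate their antibody genes and compete for survival. B cells cycle between a dark zone, where most divisions take place, and a light zone, where they meet antigen and T follicular helper cells. On entry into mitosis, cyclin B activates the kinase Cdk1, the chromosomes condense, kinetochores attach them to spindle microtubules, and the anaphase-promoting complex with its activator Cdc20 then marks cyclin B and securin for destruction so that the sister chromatids part. Many genes of this program are switched on late in the cell cycle through a promoter element called CHR, often beside CCAAT boxes, whereas genes of DNA synthesis are more often controlled through E2F sites.

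The 3 libraries hold between 16161435 and 21412501 UMIs in 2104 to 3765 cells. Cells of 1 library did not match a label: Xist, the RNA that coats the inactive X chromosome in females, had 2865 UMIs in the mitotic cells of the OVA library and 0 in those of both NP libraries, while the Y-linked genes Ddx3y, Eif2s3y, Uty and Kdm5d had 0 UMIs in the OVA library and were read in both NP libraries. Antigen, sort gate and this difference therefore cannot be told apart when NP and OVA cells are compared. The same barcode occurred in more than 1 library for 31 barcodes, and 12 mitotic cells carried such a barcode.

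The label was checked on marker genes that the rule did not use. Cd79a, a signaling chain of the B cell receptor, stood at 1457, 1824 and 1892 CPM (a gene's UMIs scaled to the same total in every group of cells, here without further normalisation) in the mitotic cells of NP 1, NP 2 and OVA 1. Mef2b, a transcription factor of germinal center B cells, stood at 451, 481 and 474. Both markers were thus well represented in the mitotic cells of every library. Some mitotic cells carried markers of other cell types: 5 had at least 3 of 12 myeloid markers and 2 had at least 2 of 12 T cell markers. In 3 cells, 1 in NP 2 and 2 in OVA 1, the signal was strong: these each held 8220 to 8886 UMIs of 7 neutrophil granule genes, and were followed by a next highest cell with 68 such UMIs. All of these cells met the rule and were kept, and each gene group was also counted without cells carrying myeloid or T cell markers.

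The share of mitotic cells was 12.2% in NP 1 (316 of 2600 cells, exact 95% interval 10.9 to 13.5), 16.1% in NP 2 (283 of 1756, 14.4 to 17.9) and 13.6% in OVA 1 (324 of 2385, 12.2 to 15.0). These intervals cover counting error only. Mitotic cells were also deep: their median was 10996, 12961 and 13686 UMIs in NP 1, NP 2 and OVA 1, against 5499.5, 7208 and 6815 in all other cells. A rule that asks for detected genes favours deep cells, so the shares were recomputed after drawing 2500 UMIs from every cell and asking for 3 of the 8 genes, with 262, 154 and 231 shallower cells left out. The shares were then 11.1%, 13.2% and 10.3%. NP 2 remained the highest library, while the order of NP 1 and OVA 1 turned, and their intervals overlapped both ways. With 1 OVA library, shares were not tested between antigens.

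**Figure D1:**
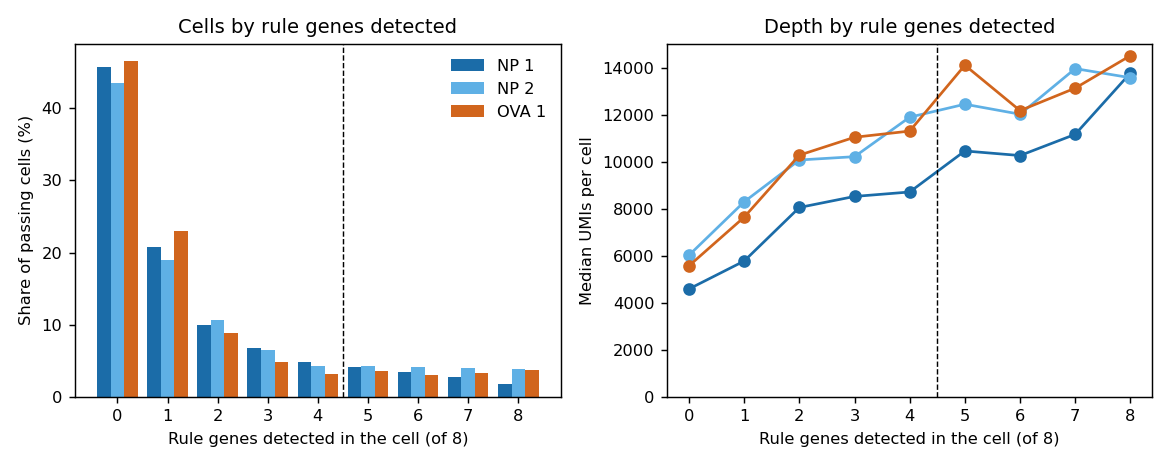
Left, the share of passing cells (%) by how many of the 8 rule genes were detected, for NP 1, NP 2 and OVA 1; right, the median UMIs per cell in the same classes. The dashed line marks the threshold of 5 genes: 45.5% of all cells had none of the genes, fewer cells have 4 to 8 genes than 0 to 2, and the median depth is higher at 8 genes than at 0 in every library.

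The rule genes themselves describe the choice and were not tested. Ccnb2 and Ccnb1 encode the B-type cyclins that drive entry into mitosis. In mitotic cells Ccnb2 stood at 357, 397 and 383 plain CPM in NP 1, NP 2 and OVA 1, against 76.4, 72.1 and 52.1 in the other cells. Ccnb1 stood at 181, 179 and 164 against 15.6, 14.9 and 13.2. Cdc20, the activator of the anaphase-promoting complex, stood at 317, 393 and 341 against 26.0, 21.8 and 15.6. The genes differed in how often they were seen: Ccnb2 was detected in 94.8% of mitotic cells, Cenpa, the centromeric histone H3 variant, in 93.6% and Cdc20 in 91.1%, but Aurka, a kinase of the spindle poles, in only 53.2%. The threshold did not fall in a gap. The 266 cells with exactly 5 genes and the 275 cells with exactly 4 had Cdc20 levels of 176, 210 and 142 against 158, 145 and 134 plain CPM, and Aurka levels of 38.1, 30.1 and 28.0 against 15.7, 12.5 and 17.0.

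The promoters of the rule genes carry the elements named above, and 3 are shown because the definition of a mitotic cell rests on these genes. The sequences are from RefSeq on GRCm38.p6, run 5′ to 3′ on the gene's strand from 100 bases before to 20 bases after the start site, and capitals mark CHR letters (TTTGAA or TTTAAA) and CCAAT. Ccnb1 lies at chr13:100786467-100786586, Ccnb2 at chr9:70421535-70421654 and Cdc20 at chr4:118437324-118437443, all on the minus strand. These 3 genes and the short window were chosen after the values were seen.
Ccnb1: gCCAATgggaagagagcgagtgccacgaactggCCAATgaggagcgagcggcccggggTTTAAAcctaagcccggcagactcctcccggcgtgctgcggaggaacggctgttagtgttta
Ccnb2: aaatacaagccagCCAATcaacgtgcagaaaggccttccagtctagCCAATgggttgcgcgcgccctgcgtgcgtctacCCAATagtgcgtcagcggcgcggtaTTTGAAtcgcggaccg
Cdc20: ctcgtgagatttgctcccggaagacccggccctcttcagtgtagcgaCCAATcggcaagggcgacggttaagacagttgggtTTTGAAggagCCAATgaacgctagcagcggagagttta
In the full windows from 250 bases before to 50 after the start, all 8 rule genes hold a CHR match and all 8 hold a CCAAT match on either strand. Over the windows of all genes tested below, 19.7% hold a CHR match and 38.8% a CCAAT match. A match is a description of letters and not of a bound site.

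Mitotic cells were then compared with all other cells of the same library. UMIs of each arm of each library were added up, giving 6 sums, which were tested with edgeR's quasi-likelihood test with the library as a block. The 8 rule genes and the immunoglobulin genes were left out. Of 10727 genes tested, 2243 were higher in mitotic cells (20.9%) and 2379 lower (22.2%) at a Benjamini-Hochberg adjusted p under 0.05, with a median log2 fold of -0.03 over all genes. Levels in the tested comparisons are CPM after edgeR's TMM normalisation, in the order NP 1, NP 2 and OVA 1. Since the cells were chosen on 8 genes of 1 program, the rise of that program in them follows from the choice and is given as a description of what these cells express. The 12 genes with the largest rise under the naming rule were Kif2c, Cdc25c, Pif1, Pimreg, Nek2, Kif20a, Aspm, Troap, Tpx2, Sapcd2, Gtse1 and Cdkn3, with log2 folds of 2.97 to 3.59.

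All 40 tested genes for the spindle, its kinesin motors and cytokinesis were higher in mitotic cells, with a median log2 fold of 2.01. Kif2c, a kinesin that takes apart microtubules at centromeres, stood at 54.7, 61.1 and 65.9 CPM in mitotic cells and at 7.27, 3.34 and 4.32 in the other cells. All mitotic values lay above all other values, and the log2 fold was 3.59 ± 0.17 (SE; edgeR adjusted p = 1.06e-10). A higher level in 3 of 3 libraries was required by the naming rule. Tpx2, which nucleates spindle microtubules and activates Aurka, stood at 235, 283 and 234 CPM against 39.2, 30.0 and 20.6 (log2 fold 3.09 ± 0.12, edgeR adjusted p = 1.42e-11). Aspm, a spindle pole protein, stood at 62.2, 59.5 and 62.3 against 8.62, 5.06 and 5.65. Kif20a, a kinesin of the cleavage furrow, stood at 112, 124 and 121 against 17.0, 11.7 and 8.76. For each of these genes the mitotic and other values did not overlap. The genes were picked for their large folds, so this is a description, and such genes were not counted over all genes tested.

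Of 26 genes for cyclins and mitotic entry, 22 were higher and 0 lower, with a median log2 fold of 1.03. Nek2, a kinase of centrosome separation, stood at 119, 109 and 98.3 CPM against 15.8, 10.0 and 7.87 (log2 fold 3.29 ± 0.11, edgeR adjusted p = 4.8e-12). Cdkn3, a phosphatase that acts on Cdk1 and Cdk2, stood at 170, 223 and 173 against 28.6, 27.5 and 17.0. Cdc25c, a phosphatase that switches on Cdk1, stood at 34.3, 43.0 and 35.4 against 4.38, 2.71 and 2.41. The 4 members that did not pass were Cdc25a, Wee1, Pkmyt1 and Ensa, named after their values were seen, with log2 folds of 0.05, 0.07, 0.15 and -0.01. Wee1 and Pkmyt1 encode kinases that hold Cdk1 back.

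Kinetochore and chromosomal passenger genes behaved alike, with 28 of 31 higher and 1 lower (median log2 fold 1.60). Birc5, the survivin subunit of the passenger complex, stood at 431, 479 and 461 CPM against 94.8, 81.5 and 53.5 (log2 fold 2.61 ± 0.11, edgeR adjusted p = 4.13e-11). Sgo2a, a shugoshin that guards centromeric cohesion, stood at 46.8, 44.4 and 51.9 against 7.94, 8.13 and 6.67. Pmf1, a subunit of the MIS12 kinetochore complex, went the other way at 117, 120 and 135 against 148, 163 and 172, a log2 fold of -0.38 ± 0.06 (edgeR adjusted p = 5.13e-05).

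The anaphase-promoting complex and the spindle checkpoint held 25 higher and 0 lower genes of 29, with a smaller median log2 fold of 0.60. Ube2c, the ubiquitin-conjugating enzyme of the complex, stood at 247, 283 and 327 CPM against 50.3, 47.8 and 35.2 (log2 fold 2.69 ± 0.11, edgeR adjusted p = 4.11e-11). Bub1, a checkpoint kinase, stood at 49.7, 44.4 and 53.5 against 12.4, 7.95 and 6.98. The 4 members that did not pass were Anapc1, Anapc4, Anapc7 and Anapc13, subunits of the complex named after their values were seen, with log2 folds of 0.16, 0.21, 0.22 and 0.14.

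All 24 condensin and mitotic chromatin genes were higher, with a median log2 fold of 1.19. Cdca3, an adaptor in the destruction of Wee1, stood at 273, 316 and 308 CPM against 65.7, 58.1 and 41.0. Cdca5 (sororin), which protects cohesin, stood at 63.5, 76.2 and 84.4 against 25.2, 22.8 and 17.2. Of 30 replication-dependent histone genes, 28 were higher and 0 lower (median log2 fold 1.56). Hist1h2ae stood at 107, 205 and 387 CPM against 47.9, 50.6 and 63.3. Its levels ranged widely between libraries, but each library had more in mitotic cells. Most histone mRNAs have no poly(A) tail and the genes are near copies of each other, so reads may be split between them and the values of single histone genes are uncertain.

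The 3 promoters printed next belong to the first genes in the ranking by fold whose window holds a CHR match. Capitals mark CHR letters and CCAAT on either strand (TTCAAA and ATTGG are their reverse forms) in windows from 250 bases before to 50 after the RefSeq start on GRCm38.p6. Kif2c is at chr4:117178723-117179022 on the minus strand, at a start site inside the annotated gene. Aspm is at chr1:139454523-139454822 and Gtse1 at chr15:85859457-85859756, both on the plus strand. Gtse1 encodes a microtubule-bound regulator of p53 in G2 and stood at 25.2, 32.6 and 42.0 CPM in mitotic cells against 4.64, 3.88 and 4.06.
Kif2c: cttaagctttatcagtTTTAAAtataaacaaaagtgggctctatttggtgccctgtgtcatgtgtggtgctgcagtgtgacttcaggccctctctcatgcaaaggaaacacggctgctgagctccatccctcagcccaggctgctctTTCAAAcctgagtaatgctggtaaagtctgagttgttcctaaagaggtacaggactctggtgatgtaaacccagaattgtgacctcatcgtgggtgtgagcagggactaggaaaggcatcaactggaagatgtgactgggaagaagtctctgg
Aspm: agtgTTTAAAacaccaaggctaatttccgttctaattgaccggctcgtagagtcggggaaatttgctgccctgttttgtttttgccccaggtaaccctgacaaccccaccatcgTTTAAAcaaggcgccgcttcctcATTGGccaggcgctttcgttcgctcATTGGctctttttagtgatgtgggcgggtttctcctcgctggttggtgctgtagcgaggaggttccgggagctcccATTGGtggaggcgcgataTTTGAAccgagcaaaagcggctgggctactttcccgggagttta
Gtse1: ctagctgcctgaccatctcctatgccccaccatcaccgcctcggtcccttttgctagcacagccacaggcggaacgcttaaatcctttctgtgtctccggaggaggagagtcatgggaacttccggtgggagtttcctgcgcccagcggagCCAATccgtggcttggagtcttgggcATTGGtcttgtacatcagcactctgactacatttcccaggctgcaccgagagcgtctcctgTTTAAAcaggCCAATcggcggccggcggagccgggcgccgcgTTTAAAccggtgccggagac
A CHR match was held by 55.7% of the windows of genes with a log2 fold of at least 2, by 47.3% at a log2 fold of at least 1, by 25.6% of all higher genes, by 18.8% of lower genes and by 19.7% of the 10504 windows of the 8308 tested genes with a window. CHR together with CCAAT was held by 42.9%, 31.0%, 12.5%, 6.07% and 7.86% of the same sets. E2F letters (TTCCCGC or TTGGCGC, both strands) were held by 8.57%, 16.6%, 18.6%, 8.42% and 12.5% of the same sets, by 20% of the windows of the 5 mitotic lists and by 55.3% of those of the S-phase list. The set with a log2 fold of at least 2 has only 70 windows. These shares describe sequence and were not tested.

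**Figure D2:**
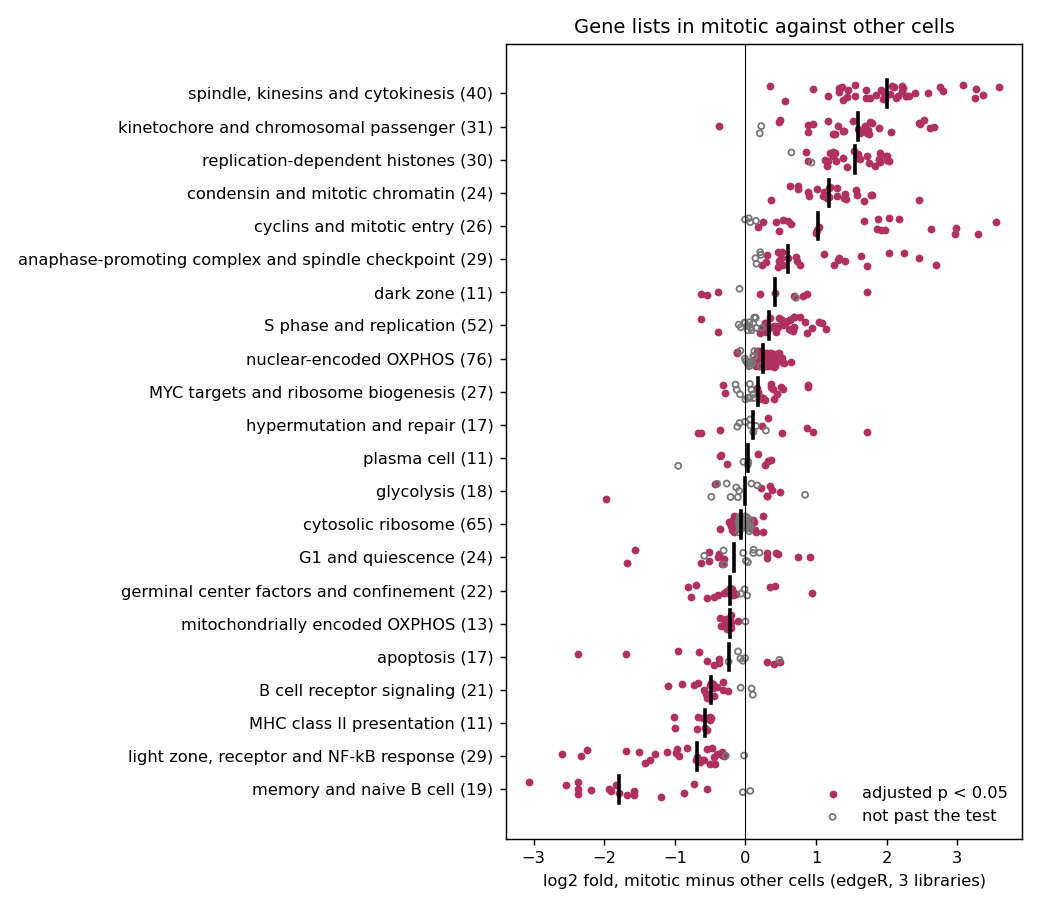
Log2 fold of every tested member of 22 gene lists in mitotic minus other cells (x axis; edgeR over 3 libraries), with filled points for adjusted p under 0.05, open points for the rest, black bars for list medians and the number of tested members in parentheses. The spindle list has the highest median (2.01) and the memory and naive B cell list the lowest (-1.79).

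Genes of DNA synthesis gave a result that differed with the choice of comparison cells. Against all other cells, 35 of 52 S-phase genes were higher and 2 lower (median log2 fold 0.34). Rrm2, a subunit of the enzyme that makes deoxynucleotides, stood at 318, 334 and 369 CPM against 170, 163 and 132. Ung, the uracil glycosylase that acts on uracil in DNA, was lower at 51.3, 44.4 and 43.1 against 66.9, 78.3 and 68.9 (log2 fold -0.62 ± 0.08, edgeR adjusted p = 1.85e-05). E2f1, an activator of S-phase genes, was lower at 30.3, 49.6 and 26.3 against 40.6, 67.6 and 31.5. When the other cells were limited to those with at least as many UMIs as the lower quartile of the mitotic cells, 8 S-phase genes were higher and 17 lower (median -0.06). With all cells drawn down to 2500 UMIs, 2 were higher and 12 lower. Against the 3064 other cells with none of the 8 rule genes, 50 of 52 were higher and 0 lower, and Ung and E2f1 then had log2 folds of 0.10 each. The calls over all genes differed between these settings too. With deep other cells 1301 were higher and 1374 lower of 10070, after drawing down 1043 and 997 of 9144, and against cells with none of the rule genes 2650 and 2767 of 10139. List counts given below for these settings are to be read beside these numbers.

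**Figure D3:**
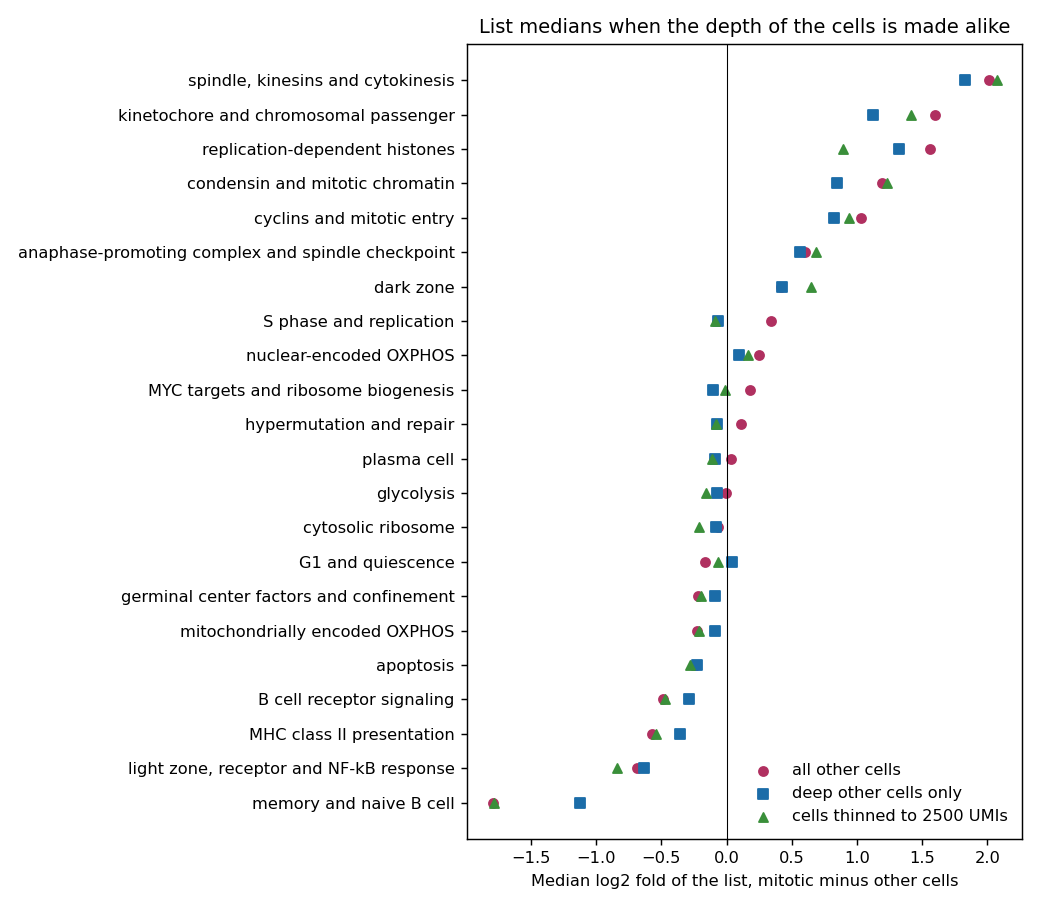
Median log2 fold of each gene list in mitotic minus other cells (x axis) with all other cells (circles), with only deep other cells (squares) and with every cell drawn down to 2500 UMIs (triangles). The S-phase median moves from 0.34 to -0.06 with deep other cells and to -0.09 after drawing down, while the spindle median stays between 1.83 and 2.07.

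The order of these genes along the number of detected rule genes is a description of the chosen classes. The mean over the 3 libraries rose for Kif2c from 1.06 plain CPM in cells with none of the rule genes to 31.3 in cells with 5 and 95.2 in cells with all 8. Ung peaked below the threshold, at 43.2 with none, 115.5 with 3, 71.5 with 5 and 21.8 with 8. Mcm5, a subunit of the replicative helicase, followed Ung at 165, 380, 336 and 196. Polh, the error-prone polymerase eta used in hypermutation, instead rose with the mitotic genes from 11.8 to 25.5, 37.8 and 82.9. The genes drawn in the plot by rule gene number were chosen after their values were seen.

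**Figure D4:**
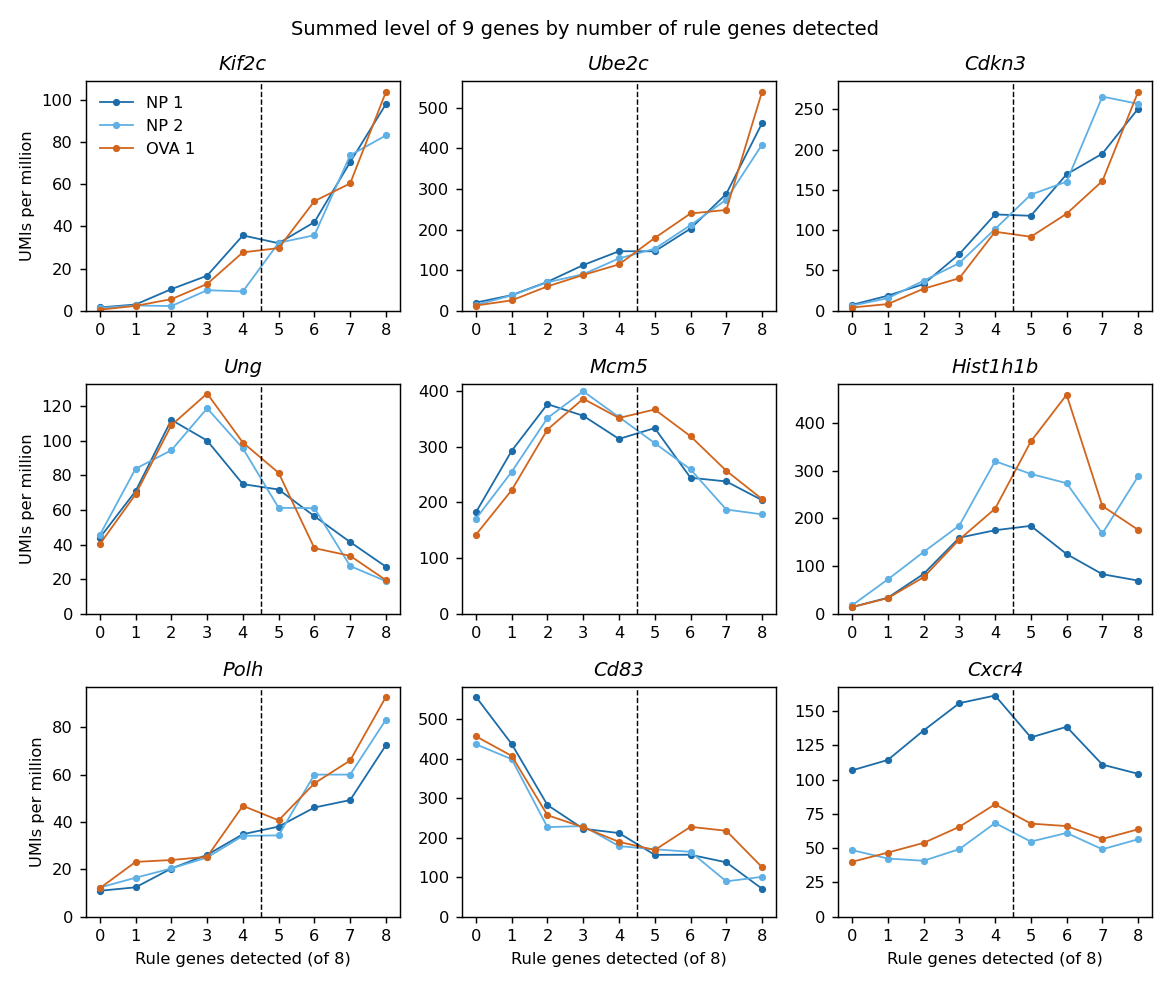
Levels of 9 genes in UMIs scaled to CPM (y axes), summed over the cells of each library by the number of rule genes detected (x axis), with the dashed line at the threshold of 5. Kif2c, Ube2c, Cdkn3 and Polh are highest in cells with 7 or 8 genes, Ung and Mcm5 in cells with 2 or 3, and Cd83 in cells with 0.

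Light-zone, receptor-response and NF-kB genes were lower in mitotic cells: 27 of 29 were lower and 0 higher, with a median log2 fold of -0.69. Il4i1, a secreted amino acid oxidase made by activated B cells, stood at 39.9, 33.4 and 54.6 CPM in mitotic cells and at 186, 161 and 259 in the other cells. Its log2 fold was -2.25 ± 0.07 (edgeR adjusted p = 8.56e-13), and a lower level in 3 of 3 libraries was required by the naming rule. Egr3, an immediate early gene of receptor signaling, stood at 0.797, 0.548 and 1.77 against 6.87, 5.78 and 7.05. Ccr7, another member, stood at 0.266, 0.274 and 3.09 against 3.10, 3.61 and 12.1. Egr3 and Ccr7 passed the count filter through the other cells, so their lower levels are a description. The counts and medians of this list include them and are a description as well. Cd83, the usual surface marker of light-zone cells, named after its values were seen, stood at 134, 139 and 182 against 408, 372 and 378. No mitotic value overlapped the other values for these genes, which is a description, since they were picked by fold or after their values were seen. With deep other cells only, 25 of 29 were lower, and after drawing down 21 of 29. Over all genes, 1374 of 10070 and 997 of 9144 were lower in these settings.

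Genes of antigen presentation and receptor signaling were lower as well. All 11 tested MHC class II genes were lower, with a median log2 fold of -0.57. Ciita, the master regulator of this pathway, stood at 71.5, 73.7 and 91.3 CPM against 167, 146 and 163 (log2 fold -1.01 ± 0.07, edgeR adjusted p = 1.23e-08). H2-Oa, which tempers peptide loading, stood at 95.1, 134 and 151 against 197, 262 and 297. In the receptor signaling list 18 of 21 genes were lower and 0 higher (median -0.49). Cd22, an inhibitory co-receptor, stood at 143, 120 and 138 against 321, 240 and 298. The 3 members that did not pass were Btk, Blnk and Bcl10, named after their values were seen, with log2 folds of 0.11, -0.07 and 0.09. With deep other cells only, 9 of 11 and 15 of 21 were lower, with medians of -0.36 and -0.29, where 1374 of all 10070 genes tested were lower.

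Memory and naive B cell genes showed the lowest list median, -1.79, with 17 of 19 lower and 0 higher. Klf2, a transcription factor of resting lymphocytes, stood at 3.99, 11.5 and 8.62 CPM against 16.6, 33.2 and 41.2. Ephx1, Plac8 and Hhex, which are used as memory B cell markers, had log2 folds of -2.19, -1.91 and -2.54. Ccr6, a chemokine receptor of memory and naive B cells, stood at 0, 1.10 and 2.43 against 3.77, 3.70 and 21.9. With deep other cells only, 14 of 19 were lower and the median was -1.12. Several of these genes are carried by few cells, and fewer cells of a type and less RNA per cell cannot be told apart in summed counts. Members with very low levels in mitotic cells, such as Ccr6 and Hhex, passed the count filter through the other cells. The counts and medians of this list are therefore a description and not a result.

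The dark-zone list did not move as 1 block: 6 of 11 genes were higher and 3 lower, with a median log2 fold of 0.41. Polh stood at 48.1, 64.1 and 67.4 CPM in mitotic cells against 15.8, 18.6 and 20.1 (log2 fold 1.72 ± 0.09, edgeR adjusted p = 2.9e-10). Lig4, the ligase of DNA end joining, stood at 33.7, 19.2 and 25.9 against 20.1, 10.2 and 13.2. Foxo1, the transcription factor that maintains the dark zone, was lower at 88.5, 116 and 80.0 against 146, 166 and 105 (log2 fold -0.54 ± 0.07, edgeR adjusted p = 7.41e-06). Fbxw7, which marks Myc and cyclin E for destruction, was lower with a log2 fold of -0.62. Cxcr4, the chemokine receptor of dark-zone cells, named after its values were seen, passed with a log2 fold of 0.21 ± 0.08 (edgeR adjusted p = 0.0358), with 121, 59.2 and 65.0 CPM against 118, 50.0 and 48.5.

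Of 22 genes for germinal center factors and for confinement to the follicle, 16 were lower and 3 higher (median -0.22). Ebf1 and Pou2f2, transcription factors of B cell identity, had log2 folds of -0.77 and -0.81. Ezh2, a histone methyltransferase of dividing germinal center B cells, stood at 175, 188 and 191 CPM against 104, 101 and 85.8, and Pou2af1, a coactivator of octamer-binding factors, was higher with a log2 fold of 0.42. With deep other cells only, 9 genes were lower and 3 higher. Of 17 hypermutation and repair genes, 6 were higher and 3 lower. Hmces, which shields abasic sites in single-stranded DNA, stood at 725, 868 and 623 CPM against 374, 436 and 325 (log2 fold 0.96 ± 0.04, edgeR adjusted p = 8.08e-11). Trp53bp1, a repair factor of double-strand breaks, was lower with a log2 fold of -0.67.

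Cell-cycle exit and survival genes went in both directions. Of 24 G1 and quiescence genes, 6 were higher and 9 lower (median -0.17). Ddit4, a stress inhibitor of mTORC1, stood at 14.1, 12.1 and 23.6 CPM against 58.6, 28.5 and 73.3, and Ccnd2, a D-type cyclin of G1, had a log2 fold of -1.57. Cdkn2d, an inhibitor of Cdk4 and Cdk6, was higher at 66.7, 88.5 and 95.2 against 39.6, 48.4 and 44.6. Of 17 apoptosis genes, 8 were lower and 3 higher (median -0.24). Bcl2, which blocks mitochondrial apoptosis, stood at 1.06, 1.37 and 2.65 against 6.39, 7.13 and 13.1, and Bmf, which opposes it, had a log2 fold of -1.69. The Bcl2 level in mitotic cells rests on few UMIs.

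Metabolic lists moved by small folds. Of 76 nuclear-encoded genes of oxidative phosphorylation, 62 were higher and 2 lower, with a median log2 fold of 0.25. Cycs, cytochrome c, stood at 340, 330 and 306 CPM against 228, 239 and 203 (log2 fold 0.55 ± 0.05, edgeR adjusted p = 2.83e-07). The count differed between settings, and so did the count over all genes. With deep other cells only 1301 of all 10070 genes were higher and 1374 lower, and after drawing down 1043 and 997 of 9144. In this list 19 were higher and 1 lower with deep other cells only (median 0.10), and 29 and 1 after drawing down. The lower genes numbered 0 without NP 1, NP 2 or OVA 1. The 13 mitochondrially encoded genes held 12 lower and 0 higher (median -0.22), and mt-Co1, a subunit of complex IV, stood at 6189, 5593 and 4599 against 8164, 6921 and 5823. With deep other cells only, 5 of these 13 were lower. Median mitochondrial shares per cell were 4.52%, 3.57% and 2.63% in mitotic cells and 5.76%, 4.30% and 3.12% in the others.

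For glycolysis 6 of 18 genes were higher and 2 lower, against 0 and 4 with deep other cells only. MYC target and ribosome biogenesis genes held 15 higher and 2 lower of 27 (median 0.18), against 4 and 6 with deep other cells only. Over all genes tested in that setting, 1301 of 10070 were higher and 1374 lower. Ran, the GTPase of nuclear transport and spindle assembly, stood at 1406, 1471 and 1326 CPM against 784, 836 and 659 (log2 fold 0.89 ± 0.05, edgeR adjusted p = 3.02e-10). Cytosolic ribosomal protein genes held 22 lower and 7 higher of 65, with a median log2 fold of -0.07. These counts were smaller when 1 library was left out: 6 were lower without NP 2 and 7 without OVA 1, and 3 were higher without NP 1 and 2 without NP 2. Over all genes tested, 1959 were higher and 1895 lower of 10450 without NP 1. The numbers were 1960 and 2143 of 10753 without NP 2, and 2188 and 1909 of 10420 without OVA 1. The lower glycolysis genes numbered 1, 3 and 1 without NP 1, NP 2 and OVA 1. The cause of the differences between the settings for depth was not tested, since these settings also changed which cells were compared.

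Genes of other cell types differed too. Ccl5, a chemokine of T and natural killer cells and some memory B cells, had 2 UMIs in the mitotic cells and 1016 in the others, a 149-fold difference as a share of all UMIs (95% counting interval 41.0 to 1229). The summed level of 12 T cell markers was 4.89, 3.33 and 5.63 plain CPM in mitotic cells and 14.6, 42.4 and 76.1 in the others, and Cd3e, Cd8a, Trbc2, Il7r and Icos had 0 UMIs in mitotic cells of every library. The 8 T cell markers that passed the count filter did so through the other cells, so their lower level in mitotic cells is a description and was not counted as a result. Of 9 myeloid markers tested, 6 were higher and 3 lower. Without cells carrying myeloid or T cell markers, 0 were higher and 1 lower of 5, and the summed myeloid level of mitotic cells was 6.55, 5.94 and 22.3 instead of 7.33, 2133 and 3776. Of 3 erythroid markers 2 were lower. Of 11 plasma cell genes 4 were higher and 3 lower (median 0.03), with Jchain, the joining chain of IgM and IgA, at 953, 1190 and 732 CPM against 728, 961 and 561. All counts given above for the mitotic, zone, presentation, receptor and metabolic lists differed by at most 1 gene when cells with myeloid or T cell markers were left out. Productive heavy chains of more than 1 kind, a sign of merged cells, were seen in 4.42%, 3.47% and 4.11% of mitotic cells with a heavy chain, in 2.28%, 3.29% and 2.09% of the other such cells and in 2.92%, 4.30% and 2.59% of S-phase cells. The part of such cells in the results was not tested, and the counts without them are given among the alternatives.

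The next comparison set mitotic cells against the cycling cells most like them. S-phase cells were defined as cells that did not meet the mitotic rule and had at least 4 of 8 S-phase genes detected, 1017 in NP 1, 637 in NP 2 and 744 in OVA 1. Their median depth was 8176, 10803 and 10827 UMIs. The S-phase genes do not separate the groups by themselves, since 65.8%, 70.0% and 68.2% of mitotic cells also had at least 4 of these 8 genes. Of 10177 genes, 1531 were higher in mitotic cells (15.0%) and 1543 lower (15.2%), 30.2% together, with the 8 S-phase rule genes also left out. Without NP 1 there were 947 higher and 789 lower of 9963 genes, without NP 2 1118 and 1218 of 10157, and without OVA 1 1185 and 1049 of 9911. Pif1, a DNA helicase, led with 35.4, 27.7 and 33.1 CPM against 4.23, 2.81 and 2.50 (log2 fold 3.33 ± 0.16, edgeR adjusted p = 6.13e-10). Cdc25c, Kif2c, Aspm, Kif20a, Nek2, Pimreg and Cdkn3 followed with log2 folds of 2.76 to 3.17. Thus all 8 leading genes were also among the 12 with the largest rise over all other cells. That comparison shares the mitotic cells, and its other cells include the S-phase cells.

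Against S-phase cells, 39 of 40 spindle genes were higher and 0 lower (median 1.57), as were 27 of 31 kinetochore genes with 1 lower (1.02), 22 of 29 genes of the anaphase-promoting complex and checkpoint (0.57) and 21 of 24 condensin and chromatin genes (0.74). Cenpe, the kinesin that carries chromosomes to the spindle equator, stood at 202, 202 and 225 CPM against 54.5, 43.0 and 42.8. Cyclin and entry genes held 16 higher and 4 lower of 26, with 1 lower without NP 1 and 2 without OVA 1. Among the lower were Pkmyt1, the Cdk1 inhibitory kinase, at 45.5, 32.7 and 72.6 against 81.0, 47.1 and 71.9, and Cdc25a, a phosphatase of the G1 to S transition, at 30.3, 31.6 and 18.9 against 34.4, 42.6 and 28.7. Pkmyt1 was lower in both NP libraries and not in OVA 1. Histone genes held 26 higher and 0 lower of those tested (median 1.08).

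Of 44 S-phase genes, 21 were lower than in S-phase cells, 4 were higher and 19 did not pass (median -0.12). Ung stood at 51.7, 44.5 and 42.7 CPM against 103, 122 and 121 (log2 fold -1.32 ± 0.09, edgeR adjusted p = 2.78e-08). E2f1 stood at 30.5, 49.7 and 26.1 against 57.7, 102 and 47.8. Rrm1 and Rrm2, both subunits of ribonucleotide reductase, stayed higher in mitotic cells with log2 folds of 0.48 and 0.40. The group of S-phase cells was chosen on genes of the same program, so the direction of this list follows in part from the choice. Of 17 hypermutation and repair genes, 4 were higher and 7 lower, and without NP 1 4 were lower.

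Zone and presentation genes differed in the same direction as against all other cells. Those other cells include the S-phase cells, so the comparisons are not independent and this likeness is in part built in. Light-zone genes held 23 of 29 lower and 0 higher (median -0.49), and Lta, which encodes lymphotoxin alpha, stood at 60.5, 55.4 and 97.6 CPM against 154, 134 and 217 (log2 fold -1.25 ± 0.06, edgeR adjusted p = 8.54e-10). MHC class II genes held 9 of 11 lower (-0.33), receptor signaling genes 16 of 21 lower (-0.34) and memory and naive genes 8 of 18 lower (-0.49). The light-zone count and the memory and naive count are again descriptions, since some members of both lists have very low levels in mitotic cells. Of 10 dark-zone genes 6 were higher and 3 lower: Polh had a log2 fold of 1.42 and Tifa, an adaptor of NF-kB signaling, of 1.15, while Fbxw7 and Foxo1 had -0.58 and -0.38. Nuclear-encoded oxidative phosphorylation genes held 38 of 76 higher and 1 lower (0.12), with 20 higher and 0 lower without NP 1 and 18 and 0 without NP 2. Mitochondrially encoded genes held 11 of 13 lower, with 3 without NP 1 and 5 without NP 2.

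Within mitotic cells, the NP libraries were compared with the OVA library. This comparison has 3 sums and 1 residual degree of freedom, which comes from the 2 NP libraries, and the lone OVA library is assumed to vary as they do, and antigen, gate and the Xist and Y-linked difference cannot be told apart in it. Of 9826 genes, 27 were higher in NP (0.275%) and 32 lower (0.326%), and 846 had an unadjusted p under 0.05. The calls did not hold across settings: DESeq2 called 9 and 6 genes, and edgeR with no low-count filter called 0 and 0. Xist was at least 1569-fold higher in OVA 1 and Eif2s3y and Ddx3y at least 136-fold and 95.1-fold higher in NP, against a floor of 3 UMIs over the group at 0. Fos, an immediate early transcription factor, stood at 20.7 and 24.2 CPM in NP 1 and NP 2 and at 88.4 in OVA 1 (log2 fold -1.98 ± 0.24, edgeR adjusted p = 2.45e-05). Jun stood at 3.50 and 8.70 against 27.1, and Fosb at 4.57 and 5.17 against 20.9. Cd36, a scavenger receptor, stood at 6.46 and 7.07 against 40.2, and Lgals9, which encodes galectin-9, at 3.23 and 10.6 against 24.1. Mir142hg, the host transcript of a blood cell microRNA, was higher in NP at 45.7 and 14.4 against 4.73, and Cmas, an enzyme that activates sialic acid, at 22.6 and 53.8 against 9.90. Gm26825 and Rpl10-ps3 were also among the 6 higher in NP, and Rpl10-ps3 is a ribosomal pseudogene whose reads may come from its parent gene.

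Of the genes of the 5 mitotic lists, 0 passed between NP and OVA, where 0.6% of all genes did, so a count of 0 in lists of this size is near the background. Of 13 mitochondrially encoded genes 4 were higher in NP and 0 lower, with mt-Nd3, a subunit of complex I, at 729 and 437 CPM against 196. Of 17 memory and naive genes tested 3 were lower in NP, with Plac8 at 4.30 and 3.54 against 14.8. In the histone list Hist1h2ae was lower in NP at 108 and 204 against 376. The mitochondrial difference between libraries was not confined to mitotic cells. Median mitochondrial shares of the other cells were 5.76% and 4.30% in NP 1 and NP 2 and 3.12% in OVA 1. When cells with myeloid or T cell markers were left out, the counts over all genes rose to 109 higher and 67 lower.

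Isotypes came from the paired heavy chain reads. Switched mitotic cells (IgG, IgA or IgE) numbered 141, 153 and 141 in NP 1, NP 2 and OVA 1, and mitotic cells with IgM or IgD 108, 106 and 151. Of 8697 genes, 27 were higher in switched cells (0.31%) and 38 lower (0.437%), 0.747% together, with 19 lower without NP 1. Slpi, a secreted protease inhibitor, stood at 112, 116 and 174 CPM in switched and 39.0, 34.6 and 77.6 in IgM mitotic cells (log2 fold 1.38 ± 0.11, edgeR adjusted p = 6.46e-12). Tox, a nuclear regulator best known in T cells, stood at 39.5, 33.2 and 30.9 against 20.3, 18.8 and 17.7, and Fos at 26.1, 30.8 and 126 against 12.5, 14.3 and 60.8. Emp2, a membrane protein, Ankrd37 and Serpinf1 were higher with log2 folds of 1.53, 1.16 and 0.91. Switched cells were higher in all 3 libraries for each of these 6 genes, which the naming rule required.

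Lower in switched mitotic cells were Ly6d, a surface protein of B cells, at 54.5, 66.9 and 112 CPM against 129, 132 and 229 (log2 fold -1.06 ± 0.09, edgeR adjusted p = 2.88e-11), and Cd72, an inhibitory co-receptor, at 64.5, 59.7 and 85.2 against 131, 108 and 187. Hist2h4, Ptprj, Ms4a4c and Slfn2 were lower with log2 folds of -1.36 to -0.92. Id3, an inhibitor of E proteins, was higher in switched cells at 256, 334 and 283 against 155, 257 and 219. Tifa was lower with a log2 fold of -1.32. Egr1, an immediate early gene of receptor signaling, passed the test with a log2 fold of 0.92 ± 0.23 (edgeR adjusted p = 0.0369), but its levels were 61.7, 37.1 and 24.0 in switched against 14.0, 12.8 and 29.9 in IgM cells, so that OVA 1 went the other way. Of the genes of the 5 mitotic lists, 0 passed between isotypes, where 0.747% of all genes did, which is also near the background.

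Clones were read from the heavy chain as cells of 1 library that share V gene, J gene and CDR3 nucleotides. Mitotic cells of clones with at least 2 cells were compared with mitotic cells of clones seen in 1 cell. Of 8450 genes, 0 were higher in expanded clones (0.0%) and 3 lower (0.0355%) by edgeR. At an unadjusted p under 0.05 there were 550 genes, and DESeq2 called 0 lower. The 3 genes were Lgals9 at 1.89, 3.80 and 13.7 CPM against 3.33, 14.9 and 42.1, Psap, which encodes a precursor of lysosomal saposins, at 56.7, 60.1 and 118 against 78.6, 75.0 and 204, and the linker histone gene Hist1h1a at 49.1, 89.8 and 49.0 against 78.6, 116 and 90.4. Their edgeR adjusted p-values were 0.0148, 0.0191 and 0.0422, and each was lower in 3 of 3 libraries. Without NP 1 there were 27 lower and 3 higher genes, and without NP 2 there were 29 lower and 0 higher. Without OVA 1 there were 3 lower and 1 higher, and none of the 3 genes named here was among them (0 shared).

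The share of mitotic cells was also taken within classes of cells that the rule did not use. These classes hold only cells with a heavy chain read, of which 15.0%, 18.3% and 15.6% were mitotic in NP 1, NP 2 and OVA 1. Cells without a heavy chain read were mitotic in 7.09%, 7.04% and 6.23% of cases. Their median depth was 4313, 4092 and 3826.5 UMIs, against 6981, 8759 and 8249 with a read. Among cells of clones with at least 2 cells, 16.7% were mitotic in NP 1, 20.2% in NP 2 and 17.5% in OVA 1. Cells that were the only member of their clone were mitotic in 13.6%, 16.9% and 13.3% of cases. The difference was 3.08, 3.36 and 4.21 percentage points, on average 3.55 ± 0.59 (SD, n = 3 libraries), and was positive in 3 of 3 libraries. The two-sided exact sign-flip permutation test gave p = 0.25, the smallest value that 3 libraries allow. After drawing each cell down to 2500 UMIs the shares were 12.5%, 16.1% and 13.4% against 10.4%, 11.6% and 8.17%, a difference of 3.95 ± 1.66 points. In clones with 8 or more cells the shares on all UMIs were 18.2%, 23.9% and 18.8%, and 16.2%, 22.2% and 13.0% after drawing down. The share did not rise steadily with clone size in every library. In OVA 1 clones of 2 to 3 and 4 to 7 cells had 13.8% and 13.7% after drawing down. In NP 1 they had 16.9% and 14.8% on all UMIs. Cells of a clone, read here from the heavy chain alone, are taken to descend from 1 founder and so are not treated as independent of each other.

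**Figure D5:**
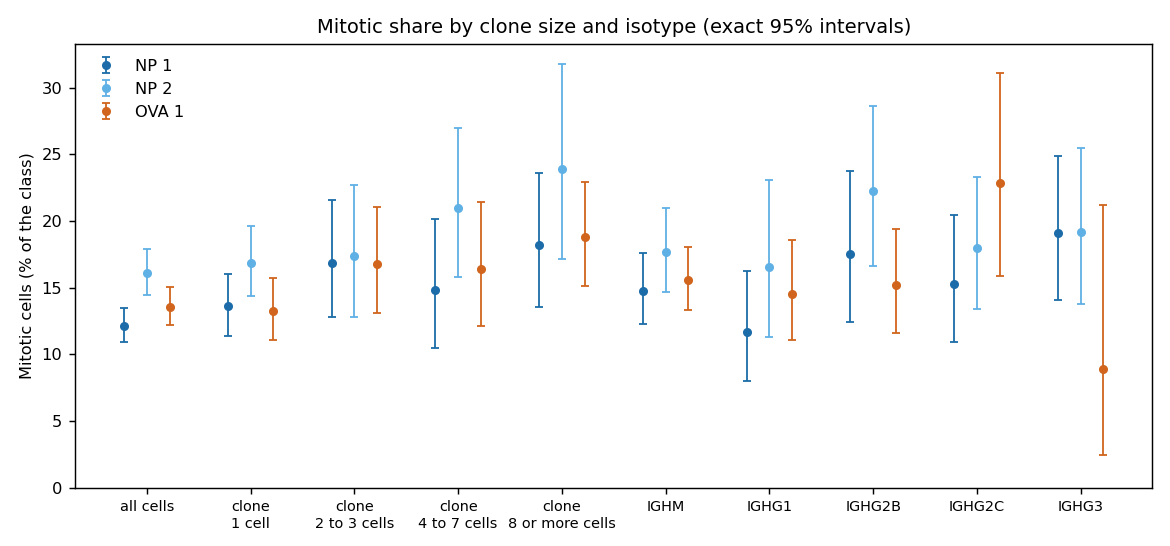
Share of mitotic cells (%) in all cells, by clone size and by heavy chain constant gene for NP 1, NP 2 and OVA 1, with exact 95% intervals that cover counting error only. In every library cells of clones with 8 or more cells lie above cells of clones seen once, and intervals for IGHG3 and IGHG2C in OVA 1 are wide because few cells carry them.

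Mitotic cells were spread over many clones. Of the clones with at least 2 cells, 86 of 199 in NP 1, 76 of 165 in NP 2 and 102 of 241 in OVA 1 held at least 1 mitotic cell, and 4, 4 and 9 clones consisted of mitotic cells alone. The clones with most mitotic cells in each antigen group were an IGHV14-2 and IGHJ2 clone of NP 1, with 9 mitotic cells of 34, and an IGHV2-5 and IGHJ4 clone of OVA 1, with 10 of 42. In the NP 1 clone 33 cells were IgM, whereas the OVA 1 clone held 16 IgG2b, 14 IgM and 10 IgG2c cells. In NP 2 a pair of IGHV1-72 clones had 5 mitotic cells each, 1 with IGHJ2 among 19 cells and 1 with IGHJ1 among 8. IGHV1-72 is the germline gene of the classical anti-NP response in this strain. The CDR3 sequences that define these clones are given 5′ to 3′ as deposited, without capitals since no position is compared.
NP 1 IGHV14-2: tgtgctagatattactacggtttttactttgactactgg
NP 2 IGHV1-72 IGHJ2: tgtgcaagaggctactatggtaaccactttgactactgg
NP 2 IGHV1-72 IGHJ1: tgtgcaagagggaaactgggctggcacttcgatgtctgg
OVA 1 IGHV2-5: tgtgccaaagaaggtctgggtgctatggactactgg

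Switched cells as a whole lay close to IgM or IgD cells, while single constant genes ranged more widely. Of switched cells 15.6%, 19.0% and 15.7% were mitotic, against 14.6%, 17.4% and 15.6% of IgM or IgD cells. The difference was 0.87 ± 0.74 percentage points (SD, n = 3 libraries; two-sided exact sign-flip permutation p = 0.25) and turned to -0.18 ± 0.81 after drawing down to 2500 UMIs. Among single constant genes, IgG1 cells had the lowest share in both NP libraries, 11.7% and 16.6%, and 14.6% in OVA 1. IgG3 cells had 19.1% in each NP library and 8.89% in OVA 1, where only 4 of 45 were mitotic (exact 95% interval 2.48 to 21.2). IgG2c cells had 15.3%, 18.0% and 22.8%, in OVA 1 7.24 points above IgM cells, a gap of 2.27 points after drawing down. In the NP libraries 15.2% and 19.8% of IGHV1-72 cells were mitotic against 14.9% and 15.7% of cells with other V genes. The differences of 0.30 and 4.06 points were 0.17 and -1.09 after drawing down, and with 2 libraries they were not tested.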

How the data were processed

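Single cells were captured with a 10x 5′ kit, and the submitters' processing notes name Cell Ranger and mm10. The authors deposited 1 table of raw UMI counts (whole numbers, genes by cells), and the receptor files hold 1 row per assembled chain, per the file headers. The members and gene lists were chosen with earlier results of these data known. The 225 immunoglobulin genes were removed, and cells were filtered at 500 genes and 10% mitochondrial UMIs. The counts of each arm were added up within a library and compared with edgeR 4.0.16 in R 4.3.3 (TMM normalisation, filterByExpr, quasi-likelihood test, library block where both arms come from the same libraries, Benjamini-Hochberg adjustment, threshold 0.05). Both arms of a library are the 2 parts of 1 capture, so the block pairs them by construction. Standard errors were derived from the log2 fold and the F statistic. Scripts were tested on simulated data. Shares carry exact 95% binomial intervals, and shares between classes were tested by exact permutation of signs over libraries. No doublet caller was run; cells with more than 1 heavy chain and the 2% with most UMIs were left out as alternatives. DESeq2 1.42.0, no low-count filter, other rule thresholds and a stricter cell filter of 1000 genes and 5% mitochondrial UMIs were further alternatives. So were comparison cells above a UMI floor, thinned cells and each library left out. The floor did not make depth equal: with both arms above it, NP 1 medians were 12666 UMIs in mitotic and 9702 in other cells. Named genes passed the threshold with the same sign in every library and at least 20 CPM in the higher arm, ranked by fold: 12 each way against other cells, 8 against S-phase cells and 6 in the other fits, with the 2 highest and 2 lowest passing members of each list. The deposited bulk heavy-chain reads were not used here.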

Additional observations from a re-analysis of the deposited data

Results flagged for a closer look

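Several differences within mitotic cells went one way in both NP libraries and the other way in OVA 1. These differences between NP and OVA were not tested, since OVA has 1 library. The share of mitotic cells among IgG2b cells minus that among IgM cells was 2.76 and 4.56 percentage points in NP 1 and NP 2 and -0.39 in OVA 1. For IgG3 minus IgM cells it was 4.30 and 1.48 points in NP 1 and NP 2 and -6.71 in OVA 1. The shared direction of both NP libraries was lost after drawing each cell down to 2500 UMIs, with IgG2b minus IgM at -0.53, 1.19 and -0.21 points and IgG3 minus IgM at -0.32, 2.35 and -4.09 in NP 1, NP 2 and OVA 1. Egr1 had log2 ratios of switched over IgM mitotic cells of 2.10 and 1.50 in NP 1 and NP 2 and of -0.31 in OVA 1.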

How the results depend on the processing

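The comparisons with other and S-phase cells used the library as a replicate block, since both arms of a library come from 1 capture. With no replicate block 574 genes were higher and 464 lower in mitotic than in other cells, 216 and 56 against S-phase cells, 0 and 0 in switched against IgM cells, and 0 were lower in expanded clones. DESeq2 called 1212 lower genes against other cells, 746 higher and 538 lower against S-phase cells, 9 and 6 for NP against OVA, 5 and 8 for switched against IgM, and 0 lower for expanded clones. The counts against other cells were smaller in the settings for depth, which also changed which cells and how many were compared. They were 1301 and 1374 with other cells at least as deep as the lower quartile of mitotic cells, 1280 and 1355 with both arms above that floor, and 1043 and 997 after thinning to 2500 UMIs.

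Leaving out 1 library at a time gave 1959 to 2188 higher and 1895 to 2143 lower genes against other cells, 947 to 1185 and 789 to 1218 against S-phase cells, 18 to 22 and 19 to 40 for switched against IgM, and 0 to 3 and 3 to 29 for expanded clones. For NP against OVA this could not be fitted, because it leaves no residual degree of freedom. That comparison had 0 and 0 genes with no low-count filter, 10 and 18 with at least 6 of 8 rule genes, 67 and 58 with at least 4, 11 and 15 with 1 heavy chain, 7 and 10 with the stricter cell filter, and 109 and 67 without cells with myeloid or T cell markers. Switched against IgM had 21 lower genes with 1 heavy chain. Expanded against single clones had 3 higher and 40 lower genes with no low-count filter. It had 11 lower genes with at least 6 of 8 rule genes, 12 with at least 4, 11 with 1 heavy chain and 11 with the stricter cell filter.

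The mitotic share in NP 1, NP 2 and OVA 1 was 8.04%, 11.9% and 10.0% with at least 6 of 8 rule genes and 16.9%, 20.4% and 16.8% with at least 4. It was 14.8%, 18.3% and 15.3% in cells with 1 heavy chain and 21.7%, 21.5% and 15.5% with the stricter filter. After thinning it was 13.2% in NP 2 and 10.3% in OVA 1. The isotype difference turned to -0.18 after thinning and to -0.094 with at least 6 of 8 rule genes, while the clone size difference lay between 2.44 and 4.66 points over its alternatives.

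Among named genes, 2511 values kept their direction and call, 310 lost the call and 13 turned. Against deep other cells Slpi, Uhrf1 and Tipin turned to log2 folds of -0.064, -0.18 and -0.078. Above the same UMI floor Uhrf1 turned to -0.055. After thinning Slpi, Rps2, Uhrf1 and Tipin turned to -0.012, -0.0645, -0.38 and -0.15. Against other cells with 0 of 8 rule genes Ung and E2f1 turned to 0.10 and 0.10. Lyz2 turned to 1.08 in cells with 1 heavy chain and Ngp to -0.24 without cells with myeloid or T cell markers. Against S-phase cells Rps2 turned to -0.038 without the 2% of cells with most UMIs. In cells with 1 heavy chain Tyrobp had a log2 fold of -0.64 and an adjusted p of 0.303 by edgeR. The same UMI floor, the removal of the 2% of cells with most UMIs and the removal of cells with myeloid or T cell markers were chosen after seeing the data. The cause of these changes was not tested. The 3 libraries limit the permutation tests, and genes at low levels rest on few UMIs.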
